A study of Mus musculus with 3 samples.

Results

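Hair keratins and trichohyalin were followed through a single-cell RNA sequencing study of the mouse anorectal region. The set held 10 of the 31053 genes in the count table, chosen by symbol. Of these, 5 belong to the inner root sheath of the hair follicle (Krt25, Krt27, Krt28, Krt71 and Tchh) and 5 to the hair shaft (Krt35, Krt31, Krt33a, Krt83 and Krt87). They were described over the 10 clusters that the authors named keratinocytes, which held 20321 of the 37080 cells.

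There were 3 libraries, each from the distal colon and anus of 5 pooled C57Bl/6 mice bought at 6 weeks of age. No transgene or mutation was named. The day 0 mice were untreated and labelled normal on histology. The other mice drank 3% dextran sulfate sodium (DSS), which damages the colonic epithelium, for 6 days and were taken at day 7, labelled severe colitis, or at day 42, labelled recovered. For 20 min the tissue was digested with trypsin-EDTA at 0.25%, and the suspension was depleted of dead cells and passed through a 40-µm filter, and the 3′ ends of transcripts were counted as unique molecular identifiers (UMIs). With 1 library per day there was no replicate, no test between days was possible, and the intervals below cover counting error only. The 5 mice of a library, their day of dissection and its processing cannot be told apart.

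Keratins are intermediate filament proteins that pair 1 type I with 1 type II chain. In a growing hair, cells of the bulb divide and then differentiate into concentric layers. The inner root sheath, which moulds the shaft and breaks down before the hair leaves the skin, makes the type I keratins Krt25, Krt27 and Krt28, the type II keratins Krt71 to Krt74, and trichohyalin, a granule protein that peptidyl arginine deiminases modify and transglutaminases cross-link. The shaft makes another set: Krt35 is switched on early, in the matrix and lower cortex, the cortex then adds Krt31, Krt33a and Krt83 and fills with keratin associated proteins (Krtap), and the shaft cuticle uses Krt32 and Krt82. Hair follicles belong to the skin around the anus, which was part of the tissue taken.

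The promoters are shown because 5 of the 6 with a RefSeq entry (GRCm38.p6) share a TATA sequence near the start. Each line gives the 100 bases upstream of the RefSeq start on the gene's strand, 5′ to 3′, with the letters TATAAA in capitals. They lie at chr11:99322952-99323051, chr11:99351119-99351218, chr11:99374904-99375003 and chr11:100050552-100050651 for the type I genes and at chr15:101743098-101743197 for the type II gene, all on the minus strand, and at chr3:93442230-93442329 on the plus strand for trichohyalin.

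Krt25: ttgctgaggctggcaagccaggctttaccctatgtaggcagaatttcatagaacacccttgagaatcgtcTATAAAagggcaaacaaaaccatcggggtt

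Krt27: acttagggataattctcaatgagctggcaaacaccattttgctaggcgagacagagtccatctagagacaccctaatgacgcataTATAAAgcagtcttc

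Krt28: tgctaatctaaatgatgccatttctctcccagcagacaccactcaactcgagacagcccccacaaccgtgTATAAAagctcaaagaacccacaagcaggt

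Krt71: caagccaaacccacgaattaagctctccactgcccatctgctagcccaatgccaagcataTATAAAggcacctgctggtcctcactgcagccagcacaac

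Krt31: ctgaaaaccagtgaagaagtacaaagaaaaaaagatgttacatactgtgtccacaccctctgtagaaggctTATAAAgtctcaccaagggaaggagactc

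Tchh: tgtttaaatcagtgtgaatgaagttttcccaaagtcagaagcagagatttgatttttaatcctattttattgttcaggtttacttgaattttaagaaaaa

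TATAAA began 30 bases before the RefSeq start in Krt25 and Krt28, 29 in Krt31, 40 in Krt71 and 15 in Krt27. Of all 32851 promoters in the table, 2.31% hold it on the gene's strand within 40 bases of the start. The Tchh stretch holds no TATAAA, which says only that these letters are not in this window. Other short motifs were searched on both strands of the 250 upstream bases. AGATAA, a core recognised by GATA factors, was found in Krt25, Krt27, Krt71 and Tchh and in 9.99% of all promoters. CTTTGA, the core of LEF1 and TCF sites, was found in Krt28, Krt31 and Tchh and in 13.8% of all promoters, and in Tchh it overlaps the AGATAA match. CCAAT was found in Krt25, Krt28 and Krt71 and in 33.8% of all promoters.

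The libraries of days 0, 7 and 42 held 89241138, 151886649 and 72258639 UMIs. The keratinocytes numbered 3316, 9035 and 7970 on these days, with median UMIs per cell of 9168, 11481 and 6542. Some barcodes occurred in more than 1 library (139 distinct barcodes, 278 cells). Only 1 of the 63 cells that made up cluster 26 or held at least 1% inner root sheath or shaft UMIs carried such a barcode, with 166 member UMIs.

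All 10 genes were found mainly in keratinocytes, but in very few of them. Between 84.6% (Krt83) and 99.3% (Krt31) of each gene's UMIs lay in the 10 keratinocyte clusters. Within these, 90% of the UMIs sat in 10 cells for Krt25, 5 for Krt27, 6 for Krt71, 6 each for Krt31 and Krt33a, 5 for Krt83 and 7 for Krt87. Krt35 needed 32 cells and Krt28 needed 83. Tchh was the most spread and needed 508. The 10 highest keratinocytes carried 91.0% of the Krt25 UMIs, 95.3% of Krt27, 95.3% of Krt71, 80.8% of Tchh, 58.8% of Krt28 and 48.2% of Krt35. They carried between 96.2% and 98.9% of the UMIs of Krt31, Krt33a, Krt83 and Krt87.

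The inner root sheath and shaft genes lay in different clusters. Clusters 12 and 17 together held nearly all inner root sheath UMIs, and cluster 26 nearly all shaft UMIs. Krt25 (chromosome 11, 99315516 to 99322951, minus strand, GENCODE M21 on GRCm38) had 53.8% of its 13729 keratinocyte UMIs in cluster 12 and 44.8% in cluster 17. Krt71 (chromosome 15, 101733949 to 101743109, minus strand) had 51.9% and 47.1% of 14157. Krt27 (chromosome 11, 99345565 to 99351104, minus strand) had 41.1% and 56.7% of 4718, and Tchh (chromosome 3, 93442330 to 93449077, plus strand) 29.8% and 52.1% of 8885. Krt28 (chromosome 11, 99364872 to 99374903, minus strand) leaned to cluster 17, with 11.2% and 75.7% of 1778. These 5 genes together left 6 UMIs in the 35 cells of cluster 26.

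**Figure D1:**
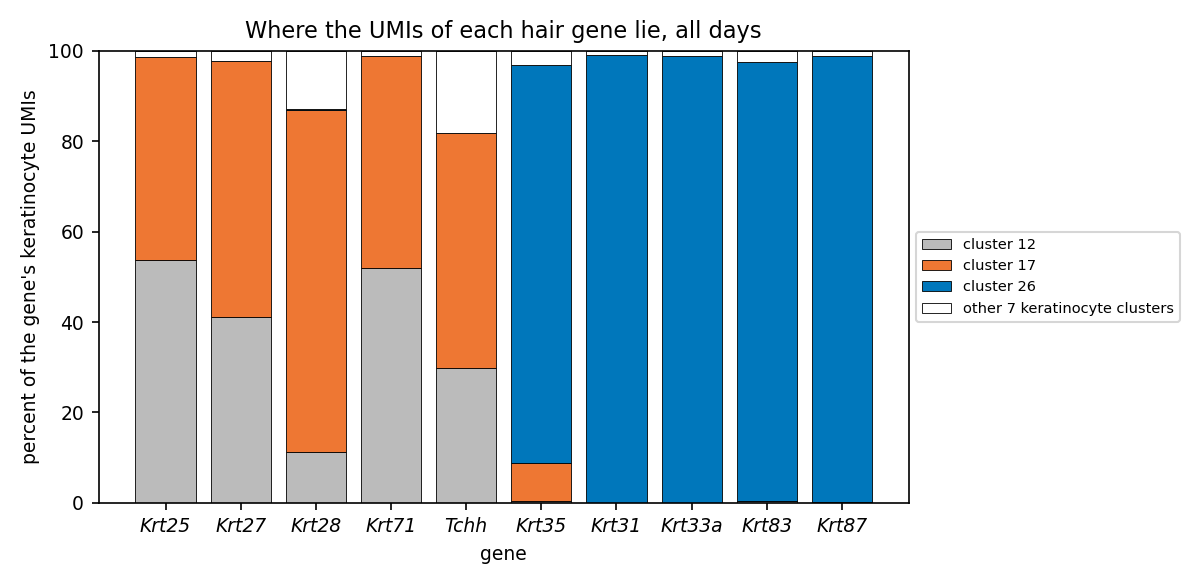
Percent of each gene's keratinocyte UMIs, over all 3 days, in clusters 12, 17 and 26 and in the other 7 keratinocyte clusters. The inner root sheath genes on the left fill clusters 12 and 17, and the shaft genes on the right fill cluster 26, with 97.2% to 99.0% of the UMIs of Krt31, Krt33a, Krt83 and Krt87 there.

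The cluster 12 share came from 1 cell. This day 0 cell held 7310 Krt25, 1933 Krt27, 189 Krt28, 7309 Krt71 and 2617 Tchh UMIs. These 19358 UMIs stood among 38715 in the cell, against a median of 1948 UMIs per cell in cluster 12 at day 0. It also held 15 Padi3 UMIs, a deiminase that acts on trichohyalin, 10 of Msx2 and 9 of Dlx3, both homeobox regulators of hair, and none of Krt5, Krt14, Krt73 or Gata3. The 1870 other cells of cluster 12 held 152 inner root sheath UMIs in all, and the 50 others at day 0 held 0. Among the 1870, 1 day 7 cell of 515 UMIs reached 5.24% (12 Krt25 and 11 Krt71 UMIs). At day 0 the Krt25 level of cluster 12, 46374 CPM (UMIs per 1e6 UMIs of the cluster and day), thus describes 1 cell. The corresponding Krt25 values were 19.3 CPM (95% Poisson interval 15.2 to 24.2) at day 7 and 0 at day 42, where 3 UMIs would be 14.4 CPM. In cluster 12 the 5 sheath genes were thus at least 2-fold lower than at day 0 on both later days (log2 ratio with 10 CPM added), where 3.86% of genes were at day 7 and 7.29% at day 42. None was higher, where 16% and 13.6% of genes were. Between the later days 1 of the 3 tested was lower (Krt25, log2 ratio -1.55, interval -1.77 to 0.14), where 8.59% of genes were, and none higher, where 3.27% were.

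In cluster 17 the inner root sheath genes sat in 19 of 461 cells, taken as cells with at least 1% of their UMIs from the 5 genes. These 19 cells held 20628 inner root sheath UMIs and the 442 others 829. There were 2 such cells among 162 at day 0 (1.23%, Clopper-Pearson interval 0.15 to 4.39), 13 among 236 at day 7 (5.51%, 2.97 to 9.24) and 4 among 63 at day 42 (6.35%, 1.76 to 15.5). The intervals of the 3 days overlap. The 442 other cells expressed outer root sheath and basal keratins instead, led by Krt17 (8136 CPM), Krt14 (5933 CPM) and Krt5 (3821 CPM), with the stem cell regulators Sox9 and Lhx2 in 323 and 306 cells. In the 19 cells Krt17 was at 119.95 CPM and Krt5 at 413 CPM, and the 5 shaft genes, like the 10 other shaft keratins in the count table, had 0 UMIs. Krt14 was present in the 19 too. A single day 7 cell among them held 114 Krt14 and 68 Krt5 UMIs beside 1522 of Krt25.

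The 19 cells were of unlike kinds. In 14 of them Krt71 was present at 38 to 3363 UMIs (median 157), with Krt25 at 54 to 1857 (median 197.5) and Tchh at 0 to 1537 (median 91, present in 13). In the other 5 Krt71 was at 0 or 1 UMI and Tchh at 0, while Krt28 was at 46 to 206 (median 93) and Krt25 at 4 to 49 (median 20). All 5 carried Krt73, a type II keratin of the inner root sheath cuticle, at 31 to 121 UMIs (median 64), and 1 also carried 25 UMIs of Krt72. All 5 had Gata3, a transcription factor needed for the inner root sheath, at 4 to 17 UMIs. Among the 14, Krt73 was present in 10 (median 16.5) and Gata3 in 11 (median 3). The division at more than 1 Krt71 UMI was made after the values were seen, so the low Krt71 of the 5 cells is no finding, and their Krt28, Krt73 and Tchh values are given as a description.

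Both day 0 cells of cluster 17 were of the kind without Krt71. They held 46 and 206 Krt28 UMIs, 26 and 4 of Krt25, 9 and 81 of Krt27, and no Krt71 or Tchh. At day 7, 11 of the 13 cells had Krt71, with a median of 140 UMIs and a highest of 3363, and the medians of Krt25, Krt27, Krt28 and Tchh were 193, 18, 38 and 56. At day 42, 3 of the 4 cells had it, at 100, 160 and 177 UMIs. The cell with 3363 Krt71 UMIs was the richest, with 28.9% of its UMIs from the 5 genes, 1857 of Krt25, 1677 of Krt27 and 1537 of Tchh, but 23 of Krt28 and none of Krt73. The next richest held 1544 UMIs of Krt71, 1522 of Krt25 and 1513 of Tchh, with 104 of Krt28 and 15 of Krt73. Krt28 and Krt73 thus overlapped between the 14 cells and the 5, up to 104 and 125 UMIs in the former, while Tchh was at 0 in the 5.

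**Figure D2:**
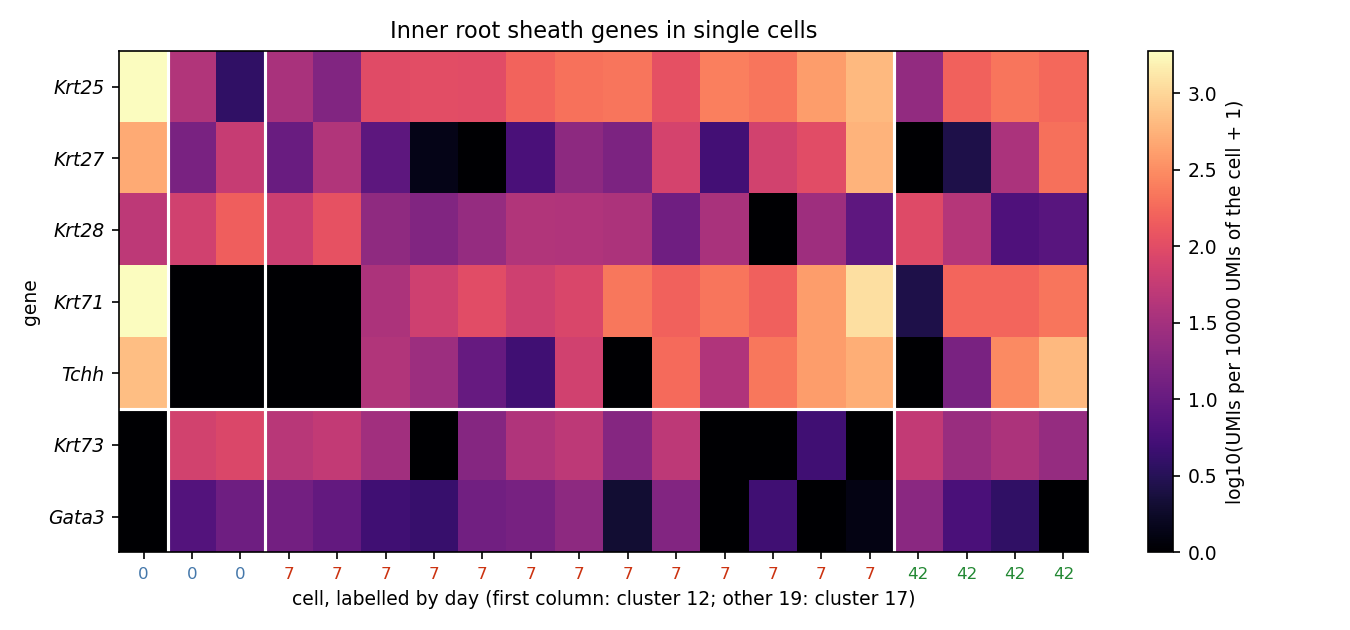
UMIs of the inner root sheath genes, and of Krt73 and Gata3, per 10000 UMIs of the cell, on a log10 scale with 1 added, in the cells of clusters 12 and 17 that had at least 1% inner root sheath UMIs and at least 1000 UMIs. Columns are cells, ordered by cluster, by day and within a day by their inner root sheath share, and labelled by day. The black Krt71 and Tchh boxes beside bright Krt28 and Krt73 boxes are the 4 cells without Krt71 UMIs at days 0 and 7, and the 1 at day 42 with 1 Krt71 UMI.

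Type I and type II chains were set against each other in these 20 cells (the 19 and the cell of cluster 12). The cells were chosen by their sheath UMIs, and no range from other cells is given. The UMIs of Krt25, Krt27 and Krt28 together, divided by those of Krt71, Krt72 and Krt73 together, lay between 0.95 and 3.12 per cell, with a median of 1.64. UMIs count molecules from their 3′ ends and are not per length. Krt74, the remaining type II gene of the sheath, has no row of that name in the count table.

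Other inner root sheath genes were looked up from a list. Of its 7 genes in the count table, 6 had UMIs in the 442 other cells of cluster 17 and all 7 in the 19 cells. Krt73 was at 2759 CPM (782 UMIs in 15 cells), Gata3 at 632 CPM (179 UMIs in 16 cells), Padi3 at 233 CPM (10 cells), Krt72 at 88.2 CPM (1 cell), Tgm3, a transglutaminase, at 77.6 CPM (9 cells), Padi1 at 52.9 CPM (7 cells) and Krt26 at 3.53 CPM (1 UMI). Gata3 was not limited to them and had UMIs in 258 of the 442 other cells of cluster 17. Of the hair regulators, all 11 had UMIs in the 442 other cells (460 CPM in sum) and in keratinocytes of the other clusters (282 CPM). All 11 also had UMIs in the 19 cells (977 CPM). Cux1 (17 cells), Dlx3 (14 cells) and Msx2 (13 cells) were found most often, and Hoxc13, a regulator of shaft keratins, was found in 3 cells with 5 UMIs. Of the markers of other cell types, the 8 sebaceous genes summed to 479.8 CPM (7 genes with UMIs), against 270.3 CPM in the other cells of cluster 17 and 314 CPM in keratinocytes of the other clusters. The 6 colonocyte genes summed to 14.1 CPM, the 5 fibroblast genes to 14.1 CPM and the 5 T cell genes to 67.0 CPM. The 6 epidermal differentiation genes summed to 2960 CPM, most of it in 1 day 7 cell with 339 Krt1 and 459 Krt10 UMIs. The part of these other genes in the results was not tested.

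Within cluster 17 the levels of 4 of the 5 genes were lower at day 0 than later. Krt25 was at 69.7 CPM (54.9 to 87.2) at day 0, 2529 (2463 to 2596) at day 7 and 2134 (1948 to 2334) at day 42. Krt71 was at 10.998 CPM (5.68 to 19.2), 2810 (2740 to 2881) and 1939 (1762 to 2130). Trichohyalin was at 4.58 CPM (1.49 to 10.7), 1730 (1676 to 1786) and 3520 (3280 to 3774). Krt27 went from 93.5 CPM (76.2 to 113) to 1082 (1039 to 1126) and 806 (693 to 932). Krt28 moved least, with 313 CPM (280.2 to 348), 408 (382 to 436) and 456 (372 to 553).

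As log2 ratios with 10 CPM added to both sides, day 7 minus day 0 was 4.99 for Krt25, 3.40 for Krt27, 0.37 for Krt28, 7.07 for Krt71 and 6.90 for Tchh. Day 42 minus day 0 was 4.75, 2.98, 0.53, 6.54 and 7.92 for the same genes. Thus 4 of the 5 were at least 2-fold higher at day 7 than at day 0, where 0.841% of all genes in this cluster were, and the same number at day 42, where 1.68% were. None was 2-fold lower, where 0.633% and 5.31% of genes were. At day 42 against day 7, Tchh (log2 ratio 1.02) was at least 2-fold higher, where 1.4% of genes were, and none was lower, where 3.28% were. The medians over the 5 genes were 4.99 and 4.75 against day 0, and -0.055 and -0.074 over all genes tested. At days 7 and 42 the levels rest mainly on 13 and 4 cells, which held 96.6% and 98.6% of the sheath UMIs of the cluster. At day 0 the 2 cells held 69.4%. They had no Krt71 or Tchh, so the 12 Krt71 and 5 Tchh UMIs of that day came from other cells of the cluster. The 2, 13 and 4 cells also differed in depth, with median UMIs of 10311, 14606 and 6661 on the 3 days. Of the 6212 Krt71 UMIs at day 7, 2 cells alone carried 3363 and 1544.

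**Figure D3:**
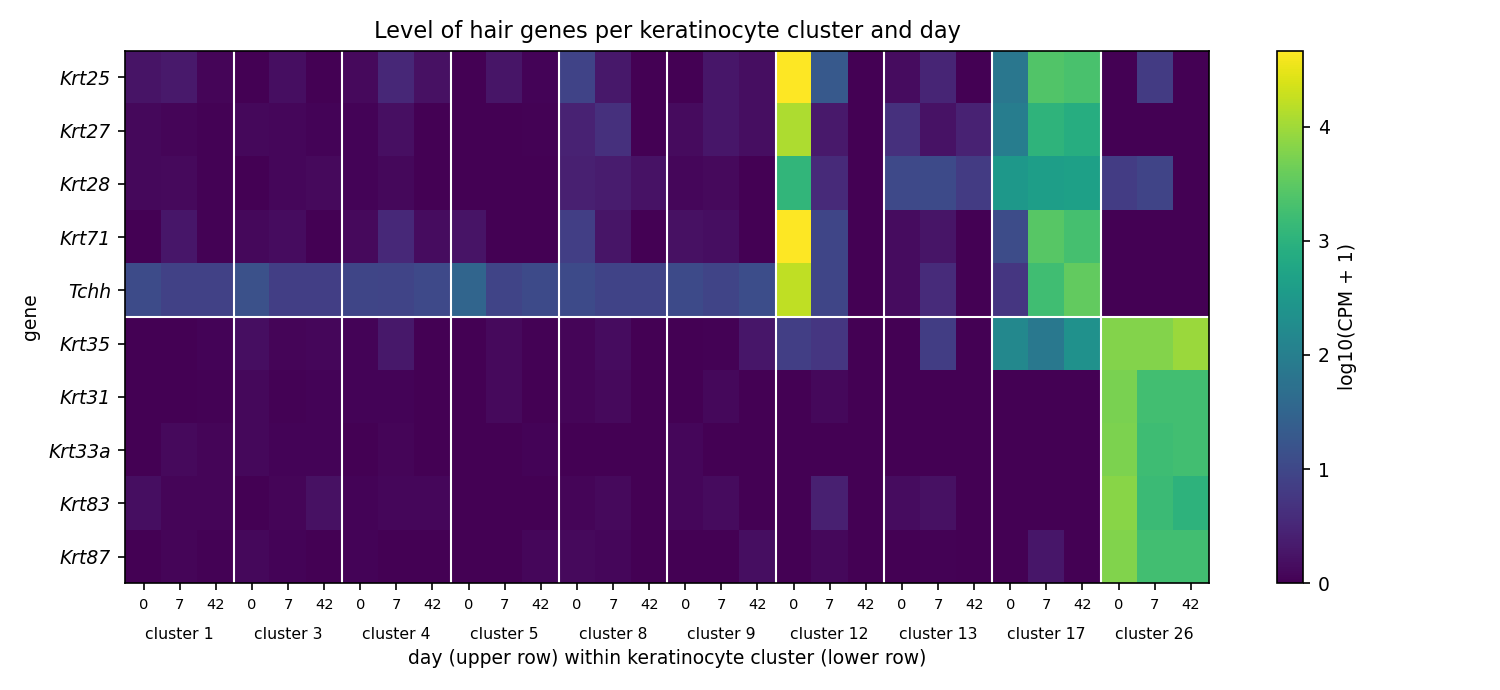
Level of each gene as log10(CPM + 1) in each of the 10 keratinocyte clusters at days 0, 7 and 42. The bright column of cluster 12 at day 0 is 1 cell, cluster 17 is brighter at days 7 and 42 than at day 0 for Krt25, Krt27, Krt71 and Tchh, and the shaft genes are bright in cluster 26.

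Over all days, the order of the clusters for Krt71 was cluster 17 (1888 CPM, 1843 to 1934), cluster 12 (1747 CPM, 1707 to 1788) and then cluster 8 (2.79 CPM). Without its highest cell, cluster 12 would stand at 7.69 CPM for Krt71, 17.8 CPM for Krt25 and 0.96 CPM for Krt27. For Krt25 clusters 12 (1757 CPM) and 17 (1743 CPM) had overlapping intervals, and cluster 8 came next at 3.33 CPM. A single day 0 cell held 45 of the 56 Krt25 UMIs of cluster 8 and 38 of its 47 Krt71 UMIs. For Krt27 the order was cluster 17 (759 CPM), cluster 12 (461 CPM) and cluster 8 (2.56 CPM). Below these, the intervals of Krt25 in cluster 8 and in its next neighbour overlapped.

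Krt28 had a second, weak site in cluster 13. There it was found in 139 of 1462 cells, at 9.71 CPM (6.16 to 14.6) at day 0, 10.1 (8.56 to 11.9) at day 7 and 5.56 (1.15 to 16.3) at day 42. Highest cells held 4, 10 and 1 UMIs, so the level was spread over many cells. With each cell thinned to 1000 UMIs, 0.859% of the day 7 cells of cluster 13 held a Krt28 UMI (0.393 to 1.62), against 10.5% unthinned. In colonocytes of cluster 2, Krt28 was in 3 of 3711 cells, and in fibroblasts in 0 of 1974. Krt35 was also found in cluster 13 at day 7, in 39 of 1138 cells, and in none of 218 cells at day 0, where 3 UMIs would be 1.27 CPM against 6.03 CPM at day 7. No cell of cluster 13 held a UMI of both genes.

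Tchh was also found at a low level in the other keratinocyte clusters, in a minority of their cells, except in cluster 26, where it had 0 UMIs. Outside clusters 12, 13, 17 and 26, 1297 of 16492 keratinocytes had a Tchh UMI, 1114 of them exactly 1, and 33 of the 1297 had a UMI of another inner root sheath gene. By cluster and day the level there lay between 6.32 CPM (cluster 3, day 7) and 32.9 CPM (cluster 5, day 0, 23.9 to 44.2). It was 0.92 CPM in T cells (1 UMI in 458 cells), 2.54 in fibroblasts and 4.29 in colonocytes. In clusters 6 and 14, both named unknown by the authors, it was 10.2 and 17.8 CPM, so a low level was not limited to keratinocytes. After thinning to 1000 UMIs, 0.902% of keratinocytes (0.775 to 1.04) held a Tchh UMI, 0.495% of colonocytes (0.334 to 0.706), 0.223% of fibroblasts (0.061 to 0.569) and 0 of 393 T cells, and the medians of UMIs per cell were 8075, 7372, 4220 and 1889 before thinning. Reads of Tchh and of its antisense neighbour Gm37245 could be confused where strand is ignored. Gm37245 had 5 UMIs in all cells, and confusion of the reads was not tested.

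The shaft genes lay in cluster 26, a set of 35 cells (12, 20 and 3 in the libraries of days 0, 7 and 42). All 35 had Krt35, the early type I keratin of matrix and cortex (chromosome 11, 100092193 to 100096241, minus strand), at 2 to 306 UMIs per cell (median 100). Its level in the cluster was 6270 CPM (5907 to 6648) at day 0, 6187 (5935 to 6446) at day 7 and 9202 (8444 to 10009) at day 42, the last from 3 cells. All 35 also had Hoxc13, a homeobox regulator of hair keratins, and 33 had Lef1, a Wnt effector of the hair matrix and cortex. None had Gata3. The keratinocyte markers Krt5, Krt14 and Trp63 were found in 18, 24 and 21 of the cells.

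The 4 cortex genes were found together in a minority of these cells. In 10 of the 35 cells, Krt31, Krt33a, Krt83 and Krt87 summed to 25 UMIs or more, and in the other 25 to 13 or fewer. A limit of 20 UMIs between them was set after the values were seen. In the 10 cells Krt31 (chromosome 11, 100046646 to 100050551, minus strand) was at 5 to 455 UMIs (median 155.5), Krt33a (chromosome 11, 100011195 to 100016212, minus strand) at 12 to 605 (median 109.5), Krt83 (chromosome 15, 101485130 to 101491512, minus strand) at 2 to 736 (median 114.5) and Krt87 (chromosome 15, 101431038 to 101438804, minus strand) at 5 to 510 (median 147.5). Of the 25 others, 1 had a Krt31 UMI, 1 a Krt33a UMI, 8 a Krt83 UMI and 18 a Krt87 UMI, the last at 10 or fewer. Krt87 thus appeared at low counts in cells where Krt31 and Krt33a were at 0.

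Krt35 did not follow the cortex genes. It was at 2 to 306 UMIs (median 58.5) in the 10 cells and at 14 to 269 (median 113) in the 25 others, so the groups overlapped. The cell with most Krt31 (455 UMIs), Krt33a (605), Krt83 (736) and Krt87 (510) held the fewest Krt35 UMIs, 2. As shares of the cell's UMIs over the 35 cells, Krt31 had a Pearson r of 0.93 and a Spearman rho of 0.92 with Krt33a, 0.93 and 0.83 with Krt83, and 0.96 and 0.78 with Krt87, while Krt35 with Krt31 gave -0.25 and -0.12. The cells share 3 libraries and 1 cluster, and the correlations are descriptions.

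Some other genes of the shaft were higher in the 10 cells, which were also deeper (median 22547 UMIs against 15096). Keratin associated proteins, which embed the keratin filaments of the shaft, summed to 7 to 1115 UMIs in the 10 cells and to 14 or fewer in the others, led by Krtap8-1 (1032 UMIs in the cluster), Krtap7-1 (749), Krtap11-1 (574) and Krtap13-1 (223). Of the 57 Krtap genes in the table, 6 had UMIs in cluster 26. Krt33b was in 9 of the 10 cells (0 to 367 UMIs) and in none of the 25. Krt81 was in 9 and 1, Krt36, a type I hair keratin, in 10 and 17, and Krt86 in 9 and 18, at up to 48 UMIs in the 10 and up to 4 in the others. Mki67, a marker of dividing cells, was the reverse, in 0 of the 10 and 10 of the 25. Krt32 and Krt82, the cuticle keratins, were found elsewhere: 5 cells had 3 or more Krt32 UMIs, up to 129, 3 of them had Krt82, and none of the 5 had a UMI of Krt31, Krt33a or Krt83. Of the list of other shaft keratins, 8 of the 10 in the table had UMIs in the cluster, and Krt40 and Krt84 did not. Krt85, also on the list, has no row of that name in the table.

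**Figure D4:**
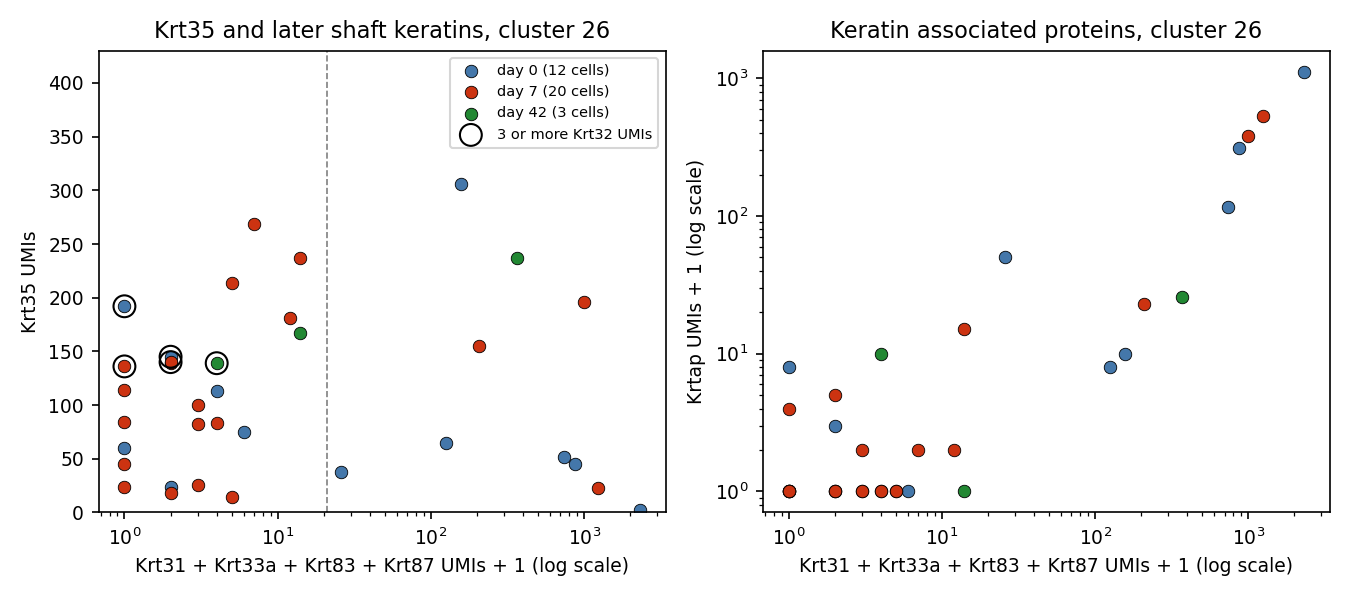
Left, Krt35 UMIs against the summed UMIs of Krt31, Krt33a, Krt83 and Krt87 plus 1 (log scale) in the 35 cells of cluster 26, coloured by day, with rings around the 5 cells of 3 or more Krt32 UMIs and a dashed line at 20 summed UMIs. Right, summed Krtap UMIs plus 1 against the same sum, both on log scales. The 10 cells right of the line include the highest Krtap sums, up to 1115, and no ringed cell.

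Cells with the cortex genes were 6 of 12 at day 0 (Clopper-Pearson interval 21.1% to 78.9%), 3 of 20 at day 7 (3.21% to 37.9%) and 1 of 3 at day 42 (0.840% to 90.6%), and the intervals overlap. Krt31 was at 5439 CPM (5102 to 5792) at day 0, 1823 (1688 to 1967) at day 7 and 1796 (1471 to 2173) at day 42. Krt33a was at 5512, 1669 and 1796 CPM, Krt83 at 6848, 1492 and 1051 CPM, and Krt87 at 5933, 1758 and 1830 CPM. No ratio is given because fewer than 20 cells of the cluster were in the day 0 and day 42 libraries, and the cell with 736 Krt83 UMIs was 1 of the 12 at day 0. Without it, the day 0 levels were 3442 CPM for Krt31, 2525 for Krt33a, 3241 for Krt83 and 3663 for Krt87.

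Among the other keratinocyte clusters, Krt35 had a second site. Cluster 17 held 375 Krt35 UMIs, at 151 CPM (129 to 176) at day 0, 71.5 (60.8 to 83.5) at day 7 and 230 (172 to 302) at day 42. Most of these, 310, were in 7 cells with at least 10 Krt35 UMIs (3, 3 and 1 per day). These 7 cells held 6 inner root sheath UMIs and none of the other 4 shaft genes, and 6 of them had Hoxc13. Krt31 and Krt33a had 0 UMIs in the 461 cells of cluster 17, where 3 UMIs would be 0.85 CPM. By order of level, Krt35 went from cluster 26 (6505 CPM) to cluster 17 (106 CPM) and cluster 13 (5.04 CPM), with intervals apart between the first and the second and between the second and the next. For Krt31, Krt33a, Krt83 and Krt87 the 9 other keratinocyte clusters were at or under 1.43 CPM.

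Krt83 was the gene least limited to keratinocytes, which held 84.6% of its UMIs. Neutrophils of cluster 11 had 169 Krt83 UMIs in 119 of 1966 cells (37.2 CPM, 31.8 to 43.3), with at most 7 in a cell. T cells of cluster 18 had 66 in 42 of 426 cells (64.3 CPM). By day, all T cells were at 48.9 CPM (32.2 to 71.1), 18.1 (6.64 to 39.4) and 166 (114 to 232). Thinned to 1000 UMIs, 2.79% of neutrophils (2.01 to 3.77) and 6.11% of T cells (3.95 to 8.95) held a Krt83 UMI, against 0.112% of keratinocytes (0.070 to 0.169), 0.082% of colonocytes and 0 of 1797 fibroblasts. Medians of UMIs per cell were 2172, 1889, 8075, 7372 and 4220 before thinning. None of the Krt83 cells in these 2 clusters had a UMI of Krt35 or Krt31. All 119 Krt83 neutrophils had S100a8 and S100a9, as did 98.9% and 99.5% of the 1847 others. The 119 were deeper (median 3322 UMIs against 2095). Krt14 was in 75 of the 119 and 1167 of the 1847, and Krt5 in 44 and 522. Among the Krt83 cells of the T cell cluster 6 of 42 had Cd3e and 12 of 42 had Krt14, and among the others 96 and 161 of 384, and the part of other cells in these values was not tested.

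Krt87 had traces in the colonic epithelium, with 60 UMIs in 55 of 2254 colonocytes of cluster 7 and 13 UMIs in 8 of 102 enteroendocrine cells. Its counts carry a limit of annotation, since 53.2% of the 50-base windows in the last 500 bases of its transcript also occur in Gm49425, a gene for which the count table has no row of that name. For Krt27 5.99% of the windows occur in Krt25, for Krt31 5.99% occur in Krt33b, and for the other 7 genes at most 0.222% are shared.

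Over keratinocytes as a class, the CPM of each of the 10 genes was lower after DSS, though not every UMI count was. Krt25 had 7440 UMIs at day 0 (219 CPM), 5798 at day 7 (45.2 CPM) and 491 at day 42 (8.45 CPM). Krt71 had 7369, 6347 and 441 UMIs (217, 49.5 and 7.59 CPM), and Krt27 had 2059, 2472 and 187 (60.6, 19.3 and 3.22 CPM). Krt28 had 567, 1100 and 111 UMIs (16.7, 8.57 and 1.91 CPM), and Tchh 2960, 4654 and 1271 (87.1, 36.3 and 21.9 CPM). By CPM, each of these genes was highest at day 0 and lowest at day 42. The class CPM combines the number of follicle cells among keratinocytes with the level in them, and in summed counts these cannot be told apart.

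Of the shaft genes, Krt35 had 1287, 2580 and 602 UMIs (37.9, 20.1 and 10.4 CPM). Krt31 had 972, 685 and 108 (28.6, 5.34 and 1.86 CPM) and Krt33a 984, 626 and 112 (28.9, 4.88 and 1.93 CPM). Krt83 had 1226, 587 and 72 (36.1, 4.57 and 1.24 CPM) and Krt87 1061, 661 and 114 (31.2, 5.15 and 1.96 CPM). By CPM, day 0 was again the highest and day 42 the lowest for each.

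As log2 ratios, day 7 minus day 0 ran from -0.52 (Krt28) to -2.05 (Krt25), and 8 of the 10 genes were at least 2-fold lower, where 0.971% of 10088 genes tested were. Krt28 and Krt35 (-0.67) were the exceptions. Day 42 minus day 0 ran from -1.16 (Krt28) to -3.69 (Krt71), and 10 of 10 were at least 2-fold lower, where 1.99% of 10114 genes were. None was at least 2-fold higher, where 1.15% and 2.31% of genes were. At day 42 against day 7, 3 of the 8 genes tested (Krt25, Krt27 and Krt71) were at least 2-fold lower, where 1.43% of 9823 genes were, and none higher, where 1.73% were. The list medians against day 0, first for day 7 and then for day 42, came to -1.27 and -2.42 for the sheath genes and -1.39 and -1.71 for the shaft genes, and -0.028 and -0.047 over all genes tested. The 3 comparisons share libraries.

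For the inner root sheath genes these ratios turned on the 1 cell of cluster 12. Without it, day 7 minus day 0 was 2.00 for Krt25, 1.09 for Krt27, -0.19 for Krt28, 2.34 for Krt71 and 1.20 for Tchh, so 4 of the 5 were at least 2-fold higher, where 1.2% of all genes were without that cell, and none lower, where 0.932% were. Day 42 minus day 0 was then 0.42, -0.05, -0.83, 0.58 and 0.66, and none of the 5 was 2-fold higher or lower, where 2.31% and 1.94% of genes were. The list medians turned to 1.20 and 0.50. That cell holds no UMI of the shaft genes.

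For 4 shaft genes the ratios turned on 1 day 0 cell of cluster 26, which held 455 of the 972 Krt31, 605 of the 984 Krt33a, 736 of the 1226 Krt83 and 510 of the 1061 Krt87 UMIs of that day. Without it, day 7 minus day 0 was -0.72 for Krt31, -0.51 for Krt33a, -0.74 for Krt83 and -0.79 for Krt87, so none of the 4 was 2-fold lower, where 0.903% of genes were. Day 42 minus day 0 was then -1.09, -0.83, -1.12 and -1.13, and Krt33a was no longer 2-fold lower, where 1.95% of genes were. The shaft medians were -0.72 and -1.12. Krt35, with 2 UMIs in that cell, stayed at -0.67 and -1.23.

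**Figure D5:**
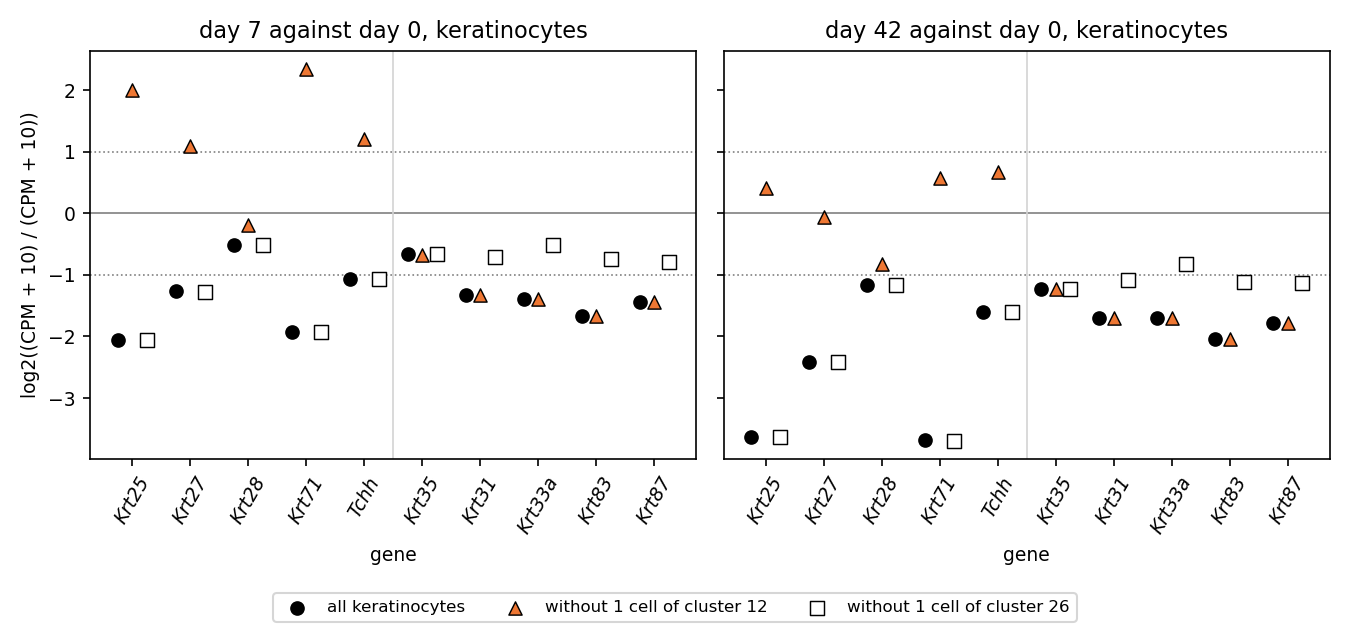
Log2 ratio of class CPM in keratinocytes, with 10 CPM added to both sides, for day 7 and day 42 against day 0. Circles are all keratinocytes, triangles leave out 1 cell of cluster 12 and squares 1 cell of cluster 26, both of day 0, and dotted lines mark a 2-fold ratio. The triangles of Krt25, Krt71 and Tchh lie above 0 where the circles lie below -1, and the squares of Krt31, Krt33a, Krt83 and Krt87 at day 7 lie above -1 where the circles lie below it.

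The cells were also counted. Keratinocytes with at least 5% of their UMIs from the sheath genes numbered 1 of 3316 at day 0 (0.030%, 0.00076 to 0.168), 6 of 9035 at day 7 (0.066%, 0.024 to 0.144) and 2 of 7970 at day 42 (0.025%, 0.0030 to 0.091), and they held 94.9%, 73.2% and 67.0% of the sheath UMIs of their day. Between 1% and 5% there were 3, 9 and 2 further cells. For the shaft genes 1 cell passed 5%, at day 0, and 7, 7 and 2 cells lay between 1% and 5%. The intervals of the sheath shares overlap at the 5% limit. At the 1% limit the shaft cells were 8 of 3316 at day 0 (0.241%, 0.104 to 0.475), 7 of 9035 at day 7 (0.077%, 0.031 to 0.160) and 2 of 7970 at day 42 (0.025%, 0.0030 to 0.091), and the intervals of the first and the last do not overlap. They cover counting error only, and each day is 1 library. Outside the keratinocyte clusters 4 cells passed 1% sheath UMIs, 2 colonocytes of cluster 2 with 36 and 26 Krt25 UMIs and 2 cells of cluster 6, named unknown, with 4 and 3. Another cell of cluster 6 passed 1% shaft UMIs (1.16%). The 4 cells had 26.6%, 24.3%, 63.6% and 22.6% mitochondrial UMIs and the last cell 69.0%, against a median of 7.90% over all cells.

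Genes most alike the summed sheath genes were ranked by Pearson r of log2(CPM + 10) over 69 combinations of cluster and day with at least 20 cells, among 5742 genes, and given with no test. They were Padi3 (r = 0.87), Lypd5 (0.86), Prss53 (0.83), 2310046K23Rik (0.81) and Prr9 (0.75). Padi3 reached 124 CPM in cluster 17 at day 42 and 95.2 CPM in cluster 12 at day 0, and Prr9 1266 CPM in cluster 17 at day 42. For the summed shaft genes they were AC103674.4 (0.88), a gene at 101515920 to 101517261 on chromosome 15, Hoxc13 (0.87), Krt86, a type II hair keratin (0.82), Hes5, a Notch target (0.81), and Psors1c2 (0.78). All 5 were highest in cluster 26 at day 7, the 1 combination of that cluster with 20 cells, where AC103674.4 was at 3085 CPM, so the likeness rests mainly on that combination. The combinations share 3 libraries. For the sheath genes, the 95.2 CPM of Padi3 in cluster 12 at day 0 are 15 UMIs of the 1 cell described above, and Lypd5, Prss53 and 2310046K23Rik were highest in that combination, so their likeness rests largely on a combination whose sheath UMIs are 1 cell.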

How the data were processed

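The authors deposited a matrix of raw UMI counts, not normalized. Cell Ranger 3.0.2 and the build mm10 are named in the submitters' processing notes; the annotation release, the filter on cells and the method of cell typing are not given in the sources used here. Clusters, cell type names and days were taken from the authors' deposited cell table. Its size factor column is a ratio, deposited by the authors, of a cell's total to the geometric mean of all totals, and was used only to check that cells and matrix columns match. No column of per-sample values was left unused.

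Counts were summed over the cells of a cluster or class and day and divided by their total (CPM). Intervals are 95% exact Poisson for levels and Clopper-Pearson for shares, and cover counting error only. A count of 0 was set against a floor of 3 UMIs per sum. Days were compared as log2((CPM + 10)/(CPM + 10)) for genes that reached 5 CPM in one of the libraries compared, and clusters with at least 20 cells in both. No test was made, since there was 1 library per day. On simulated counts for day 7 against day 0 in keratinocytes (31053 genes, 200 changed), 99.5% of the changed genes came within 0.1 of the true log2 ratio. The changed genes were picked among those well expressed at day 0, and Poisson counts were drawn on class totals. The simulation thus holds no spread between cells and cannot speak to member ratios that turn on single cells. Doublets were not removed in the main values; an alternative left out the 5% of cells per library with the highest Scrublet score (scanpy 1.11.5). Other alternatives are listed in the closing section. Named genes were the 10 members, the genes of the lists, and the 5 genes most alike each list by Pearson r among those with at least 100 CPM in 1 combination. The members and lists were chosen with earlier results of these data known. Coordinates are from GENCODE M21 (GRCm38), which is not known to be the authors' annotation, and promoters from RefSeq (GRCm38.p6), where 6 of the 10 members matched. Scripts ran in Python 3.11.15 with scipy 1.17.1, pandas 2.3.3, numpy 2.4.6 and matplotlib 3.10.9.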

Additional observations from a re-analysis of the deposited data

Results flagged for a closer look

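Some genes moved in opposite directions in 2 clusters under the same contrast of days, and these differences were not tested. The difference of log2 ratios, cluster 17 minus cluster 12, was 15.6 at day 7 and 16.9 at day 42 against day 0 for Krt25, 13.5 and 13.2 for Krt27, 18.4 and 18.7 for Krt71, and 16.7 and 18.6 for Tchh. The day 0 level of cluster 12 in these 8 values is 1 cell with 19358 of its 38715 UMIs from the inner root sheath genes, and cluster 17 at day 0 had 2 inner root sheath cells. All 5 sheath genes had 0 UMIs in cluster 12 at day 42, so the size of those differences depends on the 10 CPM added. Tchh also rose in cluster 17 while it fell in cluster 5, by a difference of 8.14 at day 7 and 9.01 at day 42. Its day 0 level in cluster 5 was 44 UMIs in 20 of 87 cells.

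A signal was also seen in cells that the comparisons do not use. Tchh was at 10.2 CPM in cluster 6 and 17.8 CPM in cluster 14, both named unknown by the authors, with UMIs in 17 of 2353 and 38 of 1019 cells. Krt83 was at 37.2 CPM in neutrophils of cluster 11 and at 64.3 CPM in T cells of cluster 18.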

How the results depend on the processing

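The setting that mattered most was which few cells were counted. Without the 1 cell of cluster 12 with most Krt25 (chosen after seeing the data), the sheath medians at day 7 and day 42 against day 0 went from -1.27 and -2.42 to 1.20 and 0.50, and single values turned for Krt25 (2.00 and 0.42), Krt71 (2.34 and 0.58), Tchh (1.20 and 0.66) and Krt27 at day 7 (1.09). Genes at least 2-fold lower went from 8 to 4 at day 7 and from 10 to 5 at day 42, and those higher at day 7 from 0 to 4. Without the cluster 26 cell with most Krt83 (also chosen after seeing the data), the shaft medians were -0.72 and -1.12 and 4 genes were 2-fold lower at day 7. Without each gene's 10 highest cells per library, 2, 1 and 2 genes stayed above the 5 CPM filter, so few 2-fold ratios could occur. The counts of lower genes in the 3 comparisons (8, 10 and 3 for day 7 and day 42 over day 0 and for day 42 over day 7) were 0. The sheath values were then -0.19, -0.090 and 0.10 (Tchh alone), and the shaft value was 0.18 in the first and -0.69 in the last (Krt35 alone). At day 7, Krt25 (0.54), Krt27 (0.054), Krt71 (0.19), Krt31 (0.0078), Krt33a (0.0056), Krt83 (0.030) and Krt87 (0.0032) came out above 0, most of them near 0 because of the 10 CPM added to the few UMIs left. With equal weight to clusters of at least 20 cells in every library, which leaves out cluster 26, the sheath medians for the 3 comparisons were -3.40, -3.79 and -0.25 and the shaft medians -0.51, 0.37 and 0.89. The lower counts were 5, 5 and 0. The share of all genes past 2-fold was not computed for these counts or for those without the 10 highest cells. With most UMIs of the shaft genes left out, values came out above 0 at day 7 for Krt31 (0.012), Krt33a (0.0017), Krt83 (0.032) and Krt87 (0.016), and at day 42 for Krt35 (0.37) and Krt87 (0.00056).

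With the mean of CPM per cell the sheath medians were -0.40, -1.13 and -0.72 and the shaft medians -0.89, -1.16 and -1.04, and 0 genes were 2-fold lower at day 7. Totals without mitochondrial and ribosomal protein genes gave -1.44, -2.86 and -1.41 for the sheath and -1.69, -2.13 and -0.51 for the shaft. A pseudocount of 1 CPM gave -1.60, -3.87 and -2.26, and -2.35, -3.37 and -1.05, with 6 genes lower at day 42 against day 7. The share of all genes past 2-fold was not computed for this count or for the one under the mean of CPM per cell. Median-of-ratios size factors gave sheath medians of -1.15 at day 7 and -2.29 at day 42, and removal of high Scrublet scores -1.25 at day 42 against day 7. The cause of these shifts was not tested. At a 1% limit, cells rich in sheath genes were 0.166% of keratinocytes at day 7 and cells rich in shaft genes 0.241% at day 0 and 0.077% at day 7, and at a 10% limit 0.022%, 0% and again 0%. Thinning moved 25 of 30 shares of cells with a UMI, by its own construction. Of the values for single members, 20 changed sign from a main ratio of at least 2-fold, 166 others moved beyond their counting interval and 144 stayed within it. Changes of sign from smaller main ratios are not among the 20. Apart from Tchh, 90% of each gene's keratinocyte UMIs lay in 83 or fewer cells. No paired analysis was possible because each day has 1 library, and for the same reason no library could be left out.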
